A study of Mus musculus with 8 samples.

Results

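Glycolysis splits glucose into pyruvate in the cytosol, and pyruvate is then either reduced to lactate and exported or taken into mitochondria and oxidised by the pyruvate dehydrogenase complex. The pathway needs NAD+, because glyceraldehyde-3-phosphate dehydrogenase reduces NAD+ to NADH and lactate dehydrogenase returns NADH to NAD+. Keratinocytes, the main cells of the epidermis, take up much of their glucose through GLUT1 and release lactate even where oxygen is present. Nampt, the gene deleted in the mice studied here, encodes the enzyme that makes the NAD+ precursor NMN from nicotinamide.

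The genes described are 38 listed genes of glucose transport, glycolysis, lactate handling, pyruvate entry into mitochondria, the glycerol phosphate shuttle and the regulator Hif1a, found by exact symbol among the 36333 genes of the table of Nampt-cKO and control skin. All 38 were found and all passed the filter on low counts, which left 17286 genes for testing. Poly-A selected RNA of whole skin was sequenced from 4 Nampt-cKO and 4 control libraries of male C57BL/6J mice. The Nampt-cKO mice carried 2 floxed Nampt alleles and a Krt5-CreERT2 transgene, which restricts Cre to keratin 5-expressing cells such as basal keratinocytes, and received intraperitoneal tamoxifen at 100 μg per g body weight on 5 consecutive days from 8 weeks of age. The control mice were Nampt flox/flox, also labelled as 8 weeks old, and the labels give tamoxifen for Nampt-cKO mice only. The study's methods give it to control mice in the UVB experiment and do not state it for the control mice of the sequencing. Skin was taken on Day 19. Fibroblasts, muscle, fat and immune cells of the skin keep Nampt in this model, and the labels do not state that the libraries come from different mice. The p-values therefore cover the spread between libraries, part of which may be technical.

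Total exon reads ranged between 39390895 and 52672388 in Nampt-cKO libraries and between 41206078 and 53762935 in control libraries. Levels are given as RPKM, that is exon reads divided by exon length and library size, with TMM scaling. Folds are log2 ratios of Nampt-cKO over control from edgeR's quasi-likelihood test, with p-values adjusted by Benjamini-Hochberg over all genes tested and a threshold of 0.05. Of all genes tested, 23.8% were higher and 22.0% were lower in Nampt-cKO skin. In bulk tissue, fewer cells of a type and less RNA per cell cannot be told apart. Nampt itself was at 7.11, 8.24, 16.7 and 10.9 RPKM in the libraries labelled Nampt-cKO replicates 1 to 4, against 17.1, 16.0, 15.6 and 13.3 RPKM in control replicates 1 to 4 (log2 fold change −0.53, adjusted p = 0.0974). The library labelled Nampt-cKO replicate 3 thus had Nampt at the control level, against its label, and values without it are given where a call differs.

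Several cell type markers also differed between the groups, where 23.8% of all genes were higher and 22.0% were lower. None of the 5 red blood cell markers passed, and muscle markers are given further below. Of 7 keratinocyte markers, 1 was higher and 2 were lower in Nampt-cKO skin. The basal keratin Krt14 was higher (log2 fold change 1.86) and the differentiation markers Krt10 and Lor were lower (−2.26 and −2.83), while Krt5, Krt1, Trp63 and Dsp did not pass (0.18, −0.24, 0.11 and −0.20). Over the 7 the summed level was 9212 to 15546 RPKM in Nampt-cKO libraries and 11776 to 12797 RPKM in control libraries. Of 8 neutrophil markers 5 were higher (Csf3r, Cxcr2, Mmp8, Fpr1 and Clec4d), with control means of at most 0.206 RPKM. The 2 lower ones, Il1r2 and Mmp9, averaged 4.95 and 1.41 RPKM in Nampt-cKO skin and 16.3 and 4.79 RPKM in control skin. Sums over the 8 were 7.99 to 23.5 RPKM in Nampt-cKO libraries and 18.8 to 25.6 RPKM in control libraries. In control libraries Il1r2 and Mmp9 held most of the sum. Fpr1 and Ly6g, which was too low to be tested, had no read in any control library. Of 7 macrophage markers 3 were higher and 1 was lower (sums of 91.4 to 253 RPKM in Nampt-cKO and 66.6 to 130 RPKM in control skin). Of 6 fibroblast markers 3 were lower and 1 was higher (503 to 1023 RPKM in Nampt-cKO and 1078 to 1674 RPKM in control skin), and 2 of 8 adipocyte markers were lower. The part of these shifts in the values that follow was not tested.

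In Nampt-cKO skin, 18 of the 38 genes were higher and 5 were lower, and the remaining 15 missed the threshold. These shares are read against the 23.8% and 22.0% of all genes. Of the 18, 13 were more than 2-fold higher, whereas 1285 of all 17286 genes were called and more than 2-fold higher. The median log2 fold change was 0.58 over the 38 genes and −0.01 over all genes tested. The 13 were Slc2a1, Hk2, Pfkl, Pfkfb3, Gapdh, Pgk1, Pgam1, Eno1, Pkm, Ldha, Slc16a1, Slc16a3 and Hif1a, which together hold a transporter for glucose, the 2 listed transporters for lactate and most steps between them. The 5 lower genes were Ldhb, Gpd1, Pdk2, Pdk3 and Pfkfb2. Levels of 19 genes lay above those of control skin without overlap between the groups, and 4 lay below, where 23.0% and 22.4% of all genes did so. Without the library labelled Nampt-cKO replicate 3, 18 genes were higher and 8 were lower.

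Muscle-enriched isoforms were judged apart. None of Slc2a4, Pfkm, Pgam2 and Eno3 passed the test, none had an unadjusted p under 0.05, and DESeq2 and limma-voom also called 0 of them. Their median log2 fold change was −0.15. Among the other 34 genes, 18 were higher and 5 were lower, with a median of 0.63.

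**Figure D1:**
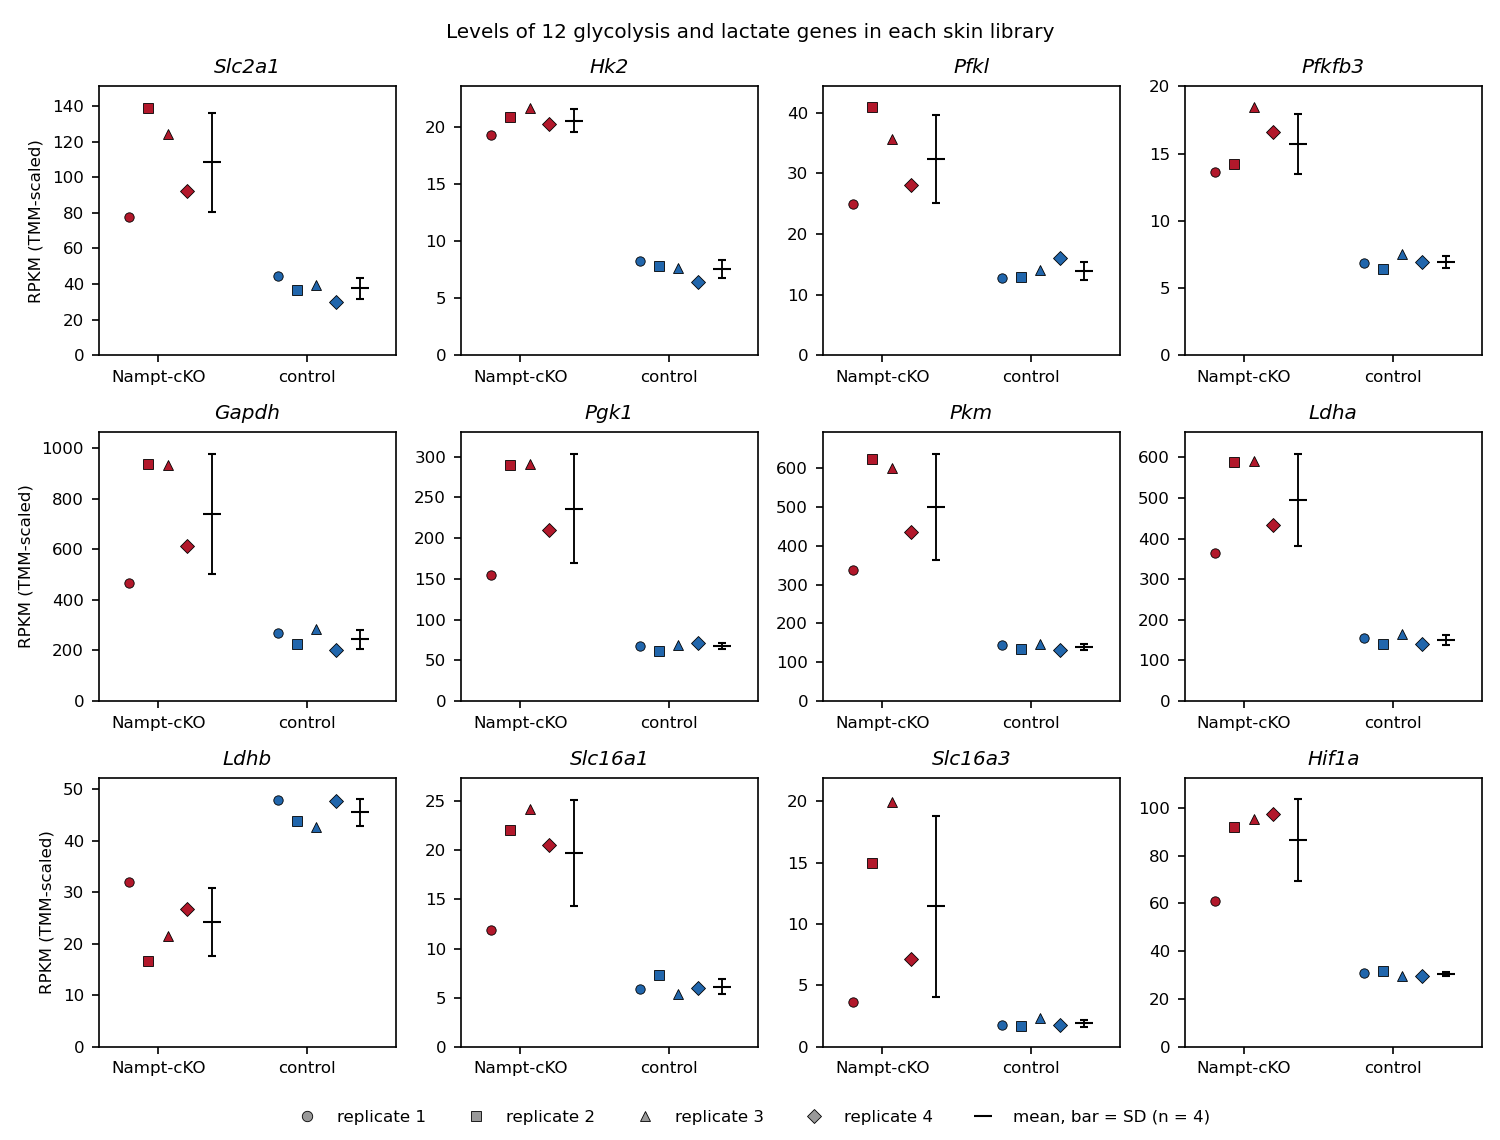
TMM-scaled RPKM of 12 genes in each of the 4 Nampt-cKO and 4 control libraries, with marker shape for the replicate number and the mean with its SD (n = 4) beside the points. For 11 of the genes every Nampt-cKO library lay above every control library, and for Ldhb every one lay below.

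The motif ACGTG, a core of the sites to which HIF-1 binds, was searched in the 250 bases upstream of the RefSeq transcript starts, on both strands. It also lies inside the E-box CACGTG, bound by MYC and USF proteins, where it is read on both strands. Among tested genes with a promoter window, 23.3% held ACGTG, as did 18 of the 35 listed genes with a window. By call these were 11 of the 17 higher genes, 3 of the 4 lower genes and 4 of the 14 that did not pass the test. The 11 included 10 of the 13 genes that were more than 2-fold higher. GCGTG, the other core variant, was in 45.7% of tested genes and in 22 of the 35. By call it was in 9 of the 17 higher genes, 3 of the 4 lower genes and 10 of the 14 that did not pass. The 9 included 8 of the 13 genes more than 2-fold higher. CACGTG was in 9.18% of tested genes and in 7 of the 35. These 7 held 4 of the 13, 2 of the 4 lower genes and 1 of the 14. Gapdh, Eno1 and Pfkl were more than 2-fold higher and held no ACGTG in any window, while the lower Pdk2, Pdk3 and Pfkfb2 held it. A match is a description of the letters and not a bound site. The upstream bases of 4 genes, 3 of lactate handling and Pgk1, are shown because Ldha and Ldhb encode subunits of the same enzyme and moved in opposite directions, and because Pgk1 and Slc16a1 were among the genes with ACGTG. They are read 5′ to 3′ on the gene's strand from RefSeq on GRCm38.p6, with ACGTG on either strand in capitals and an overlapping CACGTG wholly in capitals.
Ldha, chr7:46845554-46845803, plus strand: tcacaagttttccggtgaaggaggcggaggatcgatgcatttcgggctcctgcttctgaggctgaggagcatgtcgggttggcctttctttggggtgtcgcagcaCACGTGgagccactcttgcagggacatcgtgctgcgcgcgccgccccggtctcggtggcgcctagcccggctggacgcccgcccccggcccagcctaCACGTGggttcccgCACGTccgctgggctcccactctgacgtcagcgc
Ldhb, chr6:142507958-142508207, minus strand: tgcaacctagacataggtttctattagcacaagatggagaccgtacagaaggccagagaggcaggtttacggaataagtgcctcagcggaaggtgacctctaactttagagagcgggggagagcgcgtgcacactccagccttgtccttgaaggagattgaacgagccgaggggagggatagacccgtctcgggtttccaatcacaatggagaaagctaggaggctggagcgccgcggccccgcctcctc
Pgk1, chrX:106186850-106187099, plus strand: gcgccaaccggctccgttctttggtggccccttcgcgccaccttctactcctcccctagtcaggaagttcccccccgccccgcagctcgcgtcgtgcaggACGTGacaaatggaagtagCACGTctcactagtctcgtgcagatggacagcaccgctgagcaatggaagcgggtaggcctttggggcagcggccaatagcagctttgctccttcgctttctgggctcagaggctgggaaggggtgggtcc
Slc16a1, chr3:104638414-104638663, plus strand: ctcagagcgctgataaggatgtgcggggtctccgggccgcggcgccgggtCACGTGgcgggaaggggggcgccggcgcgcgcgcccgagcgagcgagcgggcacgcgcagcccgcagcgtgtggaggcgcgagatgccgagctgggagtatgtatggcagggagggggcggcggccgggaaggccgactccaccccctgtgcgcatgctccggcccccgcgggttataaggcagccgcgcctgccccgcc
In this window Ldha held ACGTG at 3 places, 2 of them as CACGTG, Pgk1 at 2 places, and Slc16a1 at 1 place as CACGTG. Ldhb had no ACGTG in its window and held GCGTG at 1 place, and Slc16a1 held GCGTG at 2 places. The window before a second RefSeq start of Ldha (chr7:46846832-46847081) held no ACGTG, held GCGTG at 1 place and is not shown.

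Glucose entry was led by Slc2a1, which encodes GLUT1, the transporter of basal glucose uptake (chromosome 4 of GRCm38, 119108745 to 119137330). Slc2a1 was at 78.0, 139, 124 and 92.6 RPKM in Nampt-cKO replicates 1 to 4, against 44.5, 36.4, 39.3 and 30.1 RPKM in control replicates 1 to 4. The groups did not overlap, and Nampt-cKO replicate 1 was the nearest to control. The log2 fold change was 1.53 (standard error 0.19, adjusted p = 2.43e-04). Slc2a3, the high-affinity transporter GLUT3, was low at 1.58, 1.46, 1.52 and 2.02 RPKM in Nampt-cKO libraries, against 1.12, 1.14, 1.25 and 0.871 RPKM in control libraries, and was higher in Nampt-cKO skin (log2 fold change 0.59, standard error 0.18, adjusted p = 0.0269). That call was lost in 8 of 24 alternatives, with adjusted p up to 0.0944. GLUT1 transcripts made up 93.5% ± 1.87 of the summed RPKM of the 3 transporters in Nampt-cKO skin and 86.9% ± 1.64 in control skin (SD, n = 4 each).

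Hexokinases trap glucose in the cell as glucose 6-phosphate. Hk2, the inducible hexokinase, was at 19.3, 20.9, 21.7 and 20.3 RPKM in Nampt-cKO libraries, against 8.30, 7.82, 7.62 and 6.47 RPKM in control libraries, and lies on chromosome 6 from 82725023 to 82774454. The values within each group were close together and far from those of the other group. The log2 fold change was 1.45 (standard error 0.09, adjusted p = 8.2e-06), the smallest adjusted p among the 38 genes. Hk1, the housekeeping form, averaged 23.9 ± 3.79 RPKM in Nampt-cKO skin and 21.3 ± 1.39 RPKM in control skin (SD, n = 4 each, adjusted p = 0.259), and Hk3, a form of blood cells, was at most 0.813 RPKM in any library (adjusted p = 0.238). Hk2 therefore made up 46.0% ± 4.69 of the summed hexokinase RPKM in Nampt-cKO skin and 25.9% ± 0.863 in control skin. Gpi1, which isomerises glucose 6-phosphate, was at 108, 148, 142 and 111 RPKM in Nampt-cKO libraries, against 82.8, 82.7, 90.4 and 84.3 RPKM in control libraries (log2 fold change 0.58, standard error 0.11, adjusted p = 0.00273).

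Phosphofructokinase commits sugar to glycolysis, and its 3 subunit genes moved unequally. Pfkl, the liver-type subunit, was at 24.9, 40.9, 35.7 and 28.0 RPKM in Nampt-cKO libraries, against 12.7, 12.9, 14.0 and 16.0 RPKM in control libraries. All 4 Nampt-cKO values lay above the controls, by 1.22 on the log2 scale (standard error 0.16, adjusted p = 2.74e-04). Pfkp, the platelet-type subunit, averaged 15.7 ± 1.10 RPKM in Nampt-cKO skin and 14.6 ± 0.525 RPKM in control skin (adjusted p = 0.246). Pfkl thus held 54.5% ± 4.87 of the summed RPKM of the 3 genes in Nampt-cKO skin and 32.7% ± 5.43 in control skin. The third gene, the muscle-type Pfkm, is described with the muscle isoforms.

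The Pfkfb genes encode PFK-2 enzymes, which make and break fructose 2,6-bisphosphate, the strongest activator of phosphofructokinase. Pfkfb3, whose product mainly makes it, was at 13.6, 14.2, 18.5 and 16.6 RPKM in Nampt-cKO libraries, against 6.84, 6.43, 7.51 and 6.91 RPKM in control libraries. The groups were apart, and the log2 fold change was 1.18 (standard error 0.11, adjusted p = 5.13e-05). Pfkfb2, the heart-type gene, was lower at 6.88, 6.58, 6.75 and 7.28 RPKM in Nampt-cKO libraries, against 9.22, 9.57, 8.35 and 8.20 RPKM in control libraries (log2 fold change −0.36, standard error 0.08, adjusted p = 0.0039). Pfkfb2 exceeded Pfkfb3 in every control library, and Pfkfb3 exceeded Pfkfb2 in every Nampt-cKO library. As a share of the 4 PFK-2 genes, Pfkfb3 was at 60.5% ± 2.60 in Nampt-cKO skin and 35.3% ± 2.11 in control skin. Pfkfb4 averaged 2.46 ± 0.422 RPKM in Nampt-cKO skin and 3.16 ± 0.170 RPKM in control skin without overlap, with an adjusted p of 0.0617 that fell under the threshold in 10 of 24 alternatives, among them the fit without the library labelled Nampt-cKO replicate 3 (log2 fold change −0.43, adjusted p = 0.0397). Pfkfb1, the liver and muscle form, was at most 1.50 RPKM in any library (adjusted p = 0.507).

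The later steps of the pathway, which yield ATP, were higher as a run of neighbouring enzymes. Tpi1, which interconverts the triose phosphates, was at 185, 284, 275 and 186 RPKM in Nampt-cKO libraries, against 124, 107, 126 and 124 RPKM in control libraries (log2 fold change 0.95, standard error 0.16, adjusted p = 0.00103). Gapdh, the NAD+-dependent step and a common reference gene in expression assays (chromosome 6, 125161721 to 125166467), was at 465, 939, 934 and 615 RPKM in Nampt-cKO libraries, against 268, 224, 284 and 203 RPKM in control libraries. It was the most abundant of the 38 genes in both groups, and the groups did not overlap. The log2 fold change was 1.59 (standard error 0.23, adjusted p = 4.66e-04).

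Pgk1, the first ATP-forming enzyme of the pathway (chromosome X, 106187100 to 106203699), was at 154, 290, 291 and 210 RPKM in Nampt-cKO libraries, against 67.5, 61.8, 69.4 and 71.5 RPKM in control libraries. Its log2 fold change was 1.81 (standard error 0.19, adjusted p = 1.02e-04). Pgam1, the widely expressed phosphoglycerate mutase, was at 170, 310, 298 and 221 RPKM in Nampt-cKO libraries, against 70.6, 74.3, 74.7 and 84.6 RPKM in control libraries (log2 fold change 1.72, standard error 0.18, adjusted p = 1.01e-04). Replicates 2 and 3 were the highest of the Nampt-cKO libraries for both genes. Eno1, the widely expressed enolase, was at 214, 436, 362 and 265 RPKM in Nampt-cKO libraries, against 91.3, 92.0, 98.8 and 130 RPKM in control libraries (log2 fold change 1.63, standard error 0.22, adjusted p = 3.61e-04). Pkm, which encodes both muscle-type pyruvate kinases and forms the second ATP (chromosome 9, 59656368 to 59679375), was at 337, 624, 599 and 436 RPKM in Nampt-cKO libraries, against 145, 134, 148 and 132 RPKM in control libraries. Its control values lay within a narrow range and its Nampt-cKO values all lay above them, by 1.84 on the log2 scale (standard error 0.18, adjusted p = 7.92e-05). The gene-level reads do not separate the PKM1 and PKM2 splice forms.

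Not every gene of these steps passed. Aldoa, the main aldolase, was at 190, 328, 457 and 221 RPKM in Nampt-cKO libraries, against 233, 177, 224 and 140 RPKM in control libraries. The groups overlapped, and the difference did not pass (log2 fold change 0.63, standard error 0.27, adjusted p = 0.0886). It was 3.43e-04 with the summed muscle markers as a covariate (log2 fold change 0.62), a fit that also called some of those markers. Aldoc, the brain-type aldolase, averaged 3.87 ± 1.23 RPKM in Nampt-cKO skin and 5.33 ± 0.624 RPKM in control skin (adjusted p = 0.111), and the neuronal enolase gene Eno2 averaged 1.63 ± 0.333 RPKM and 1.58 ± 0.302 RPKM in these groups (adjusted p = 0.874).

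**Figure D2:**
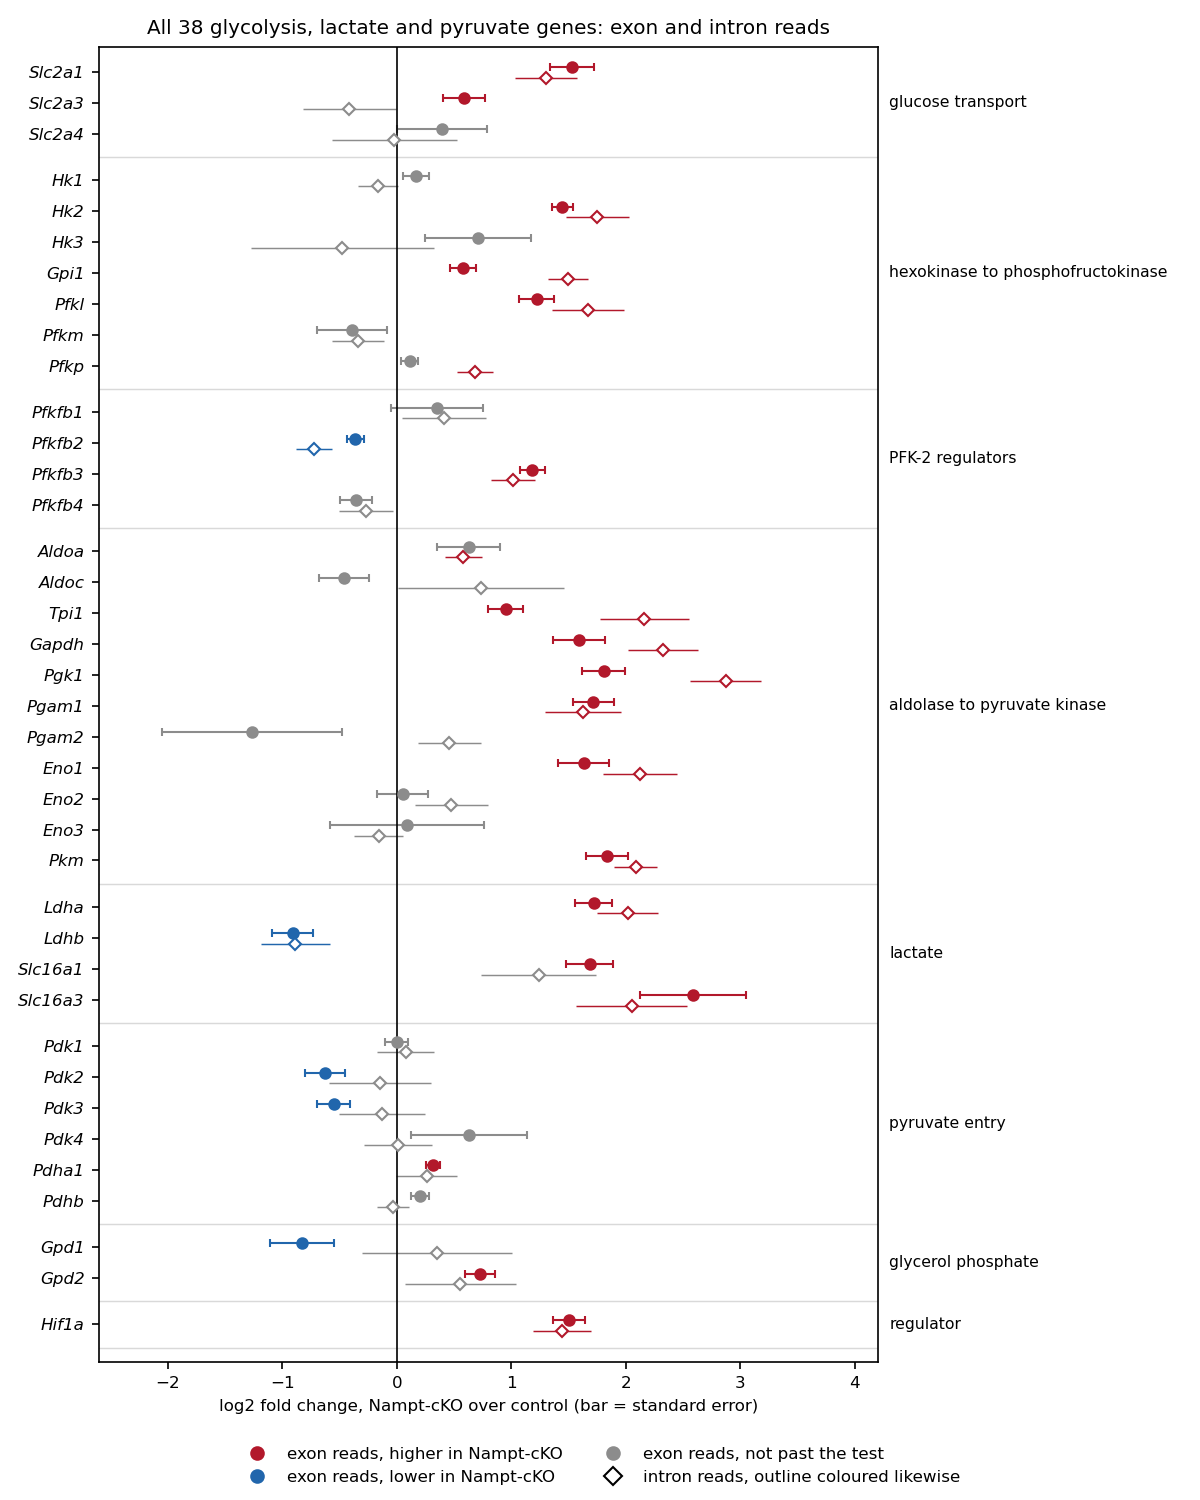
Log2 fold change of Nampt-cKO over control for all 38 genes grouped by role, from exon reads (filled circles) and intron reads (open diamonds), with bars for the standard error. In exon reads 18 genes were higher and 5 were lower, and in intron reads 16 were higher and 2 were lower.

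All 4 lactate genes passed the test. Ldha encodes the subunit of lactate dehydrogenase that favours lactate formation (chromosome 7, 46845804 to 46855627), and Ldhb the subunit that favours its oxidation (chromosome 6, 142490249 to 142507957). Ldha was at 366, 587, 592 and 434 RPKM in Nampt-cKO libraries, against 156, 141, 165 and 140 RPKM in control libraries. Every Nampt-cKO library exceeded every control library, by 1.72 on the log2 scale (standard error 0.16, adjusted p = 5.31e-05). Ldhb was at 32.0, 16.5, 21.5 and 26.7 RPKM in Nampt-cKO libraries, against 47.8, 43.8, 42.6 and 47.6 RPKM in control libraries. Here the order was turned round, and every Nampt-cKO library lay below every control library (log2 fold change −0.91, standard error 0.18, adjusted p = 0.00269). Per library, the ratio of Ldha to Ldhb RPKM was 11.4, 35.5, 27.5 and 16.3 in Nampt-cKO skin, against 3.27, 3.21, 3.87 and 2.94 in control skin. Ldhb made up 5.02% ± 2.40 of lactate dehydrogenase RPKM in Nampt-cKO skin and 23.3% ± 2.01 in control skin (SD, n = 4 each).

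Monocarboxylate transporters carry lactate and pyruvate together with a proton across the plasma membrane. Slc16a1, which encodes MCT1, was at 11.9, 22.1, 24.2 and 20.6 RPKM in Nampt-cKO libraries, against 5.88, 7.26, 5.41 and 5.95 RPKM in control libraries (log2 fold change 1.68, standard error 0.20, adjusted p = 2.14e-04). Slc16a3, which encodes the exporter MCT4, was at 3.63, 15.0, 20.0 and 7.18 RPKM in Nampt-cKO libraries, against 1.80, 1.69, 2.36 and 1.78 RPKM in control libraries. It had the largest log2 fold change of the 38 genes, 2.59 (standard error 0.46, adjusted p = 0.00162). Its Nampt-cKO values were also far apart, with replicates 2 and 3 well above replicate 1. Slc16a3 held 23.3% to 45.2% of the RPKM of both transporters in Nampt-cKO libraries and 18.9% to 30.3% in control libraries, so these shares overlapped.

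**Figure D3:**
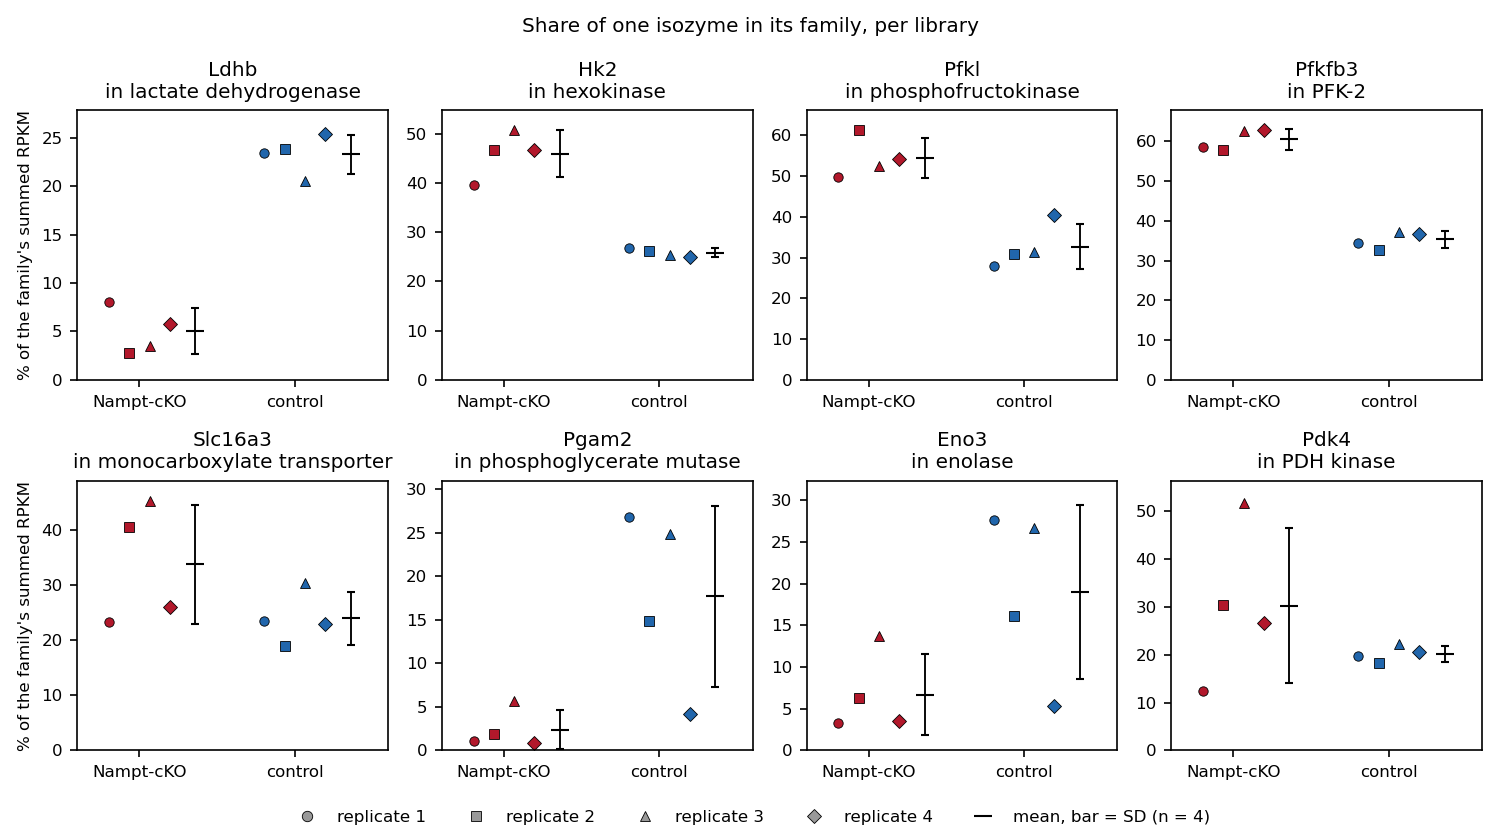
Share of 1 gene in the summed TMM-scaled RPKM of its family, in percent, for each Nampt-cKO and control library, with the mean and SD (n = 4). The shares of Ldhb, Hk2, Pfkl and Pfkfb3 did not overlap between the groups, while those of Slc16a3, Pgam2, Eno3 and Pdk4 did.

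Pyruvate enters oxidation through pyruvate dehydrogenase, which the PDH kinases switch off by phosphorylation. Pdk2 was lower at 9.01, 7.02, 13.1 and 9.36 RPKM in Nampt-cKO libraries, against 15.7, 12.9, 15.8 and 15.0 RPKM in control libraries, and the groups overlapped in the library labelled Nampt-cKO replicate 3 (log2 fold change −0.62, standard error 0.18, adjusted p = 0.0161). Pdk3 was lower at 10.8, 9.70, 7.86 and 7.00 RPKM in Nampt-cKO libraries, against 13.5, 13.5, 11.9 and 13.0 RPKM in control libraries (log2 fold change −0.55, standard error 0.14, adjusted p = 0.0114). Pdk1, a known HIF-1 target, was level at 10.3 ± 1.26 RPKM in Nampt-cKO skin and 10.3 ± 0.747 RPKM in control skin (log2 fold change 0.00, standard error 0.10, adjusted p = 0.996). Pdk4, the starvation-induced kinase, ranged from 4.12 to 33.6 RPKM in Nampt-cKO libraries and from 8.19 to 11.0 RPKM in control libraries, with its highest value in the library labelled Nampt-cKO replicate 3 (adjusted p = 0.342).

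The substrate of these kinases changed little but evenly. Pdha1, the catalytic E1 alpha subunit that the kinases phosphorylate, was at 70.9, 70.5, 72.3 and 71.9 RPKM in Nampt-cKO libraries, against 57.0, 57.2, 59.3 and 56.1 RPKM in control libraries. Both groups were tight and apart (log2 fold change 0.31, standard error 0.06, adjusted p = 0.00229). Pdhb, its partner subunit, averaged 57.4 ± 5.20 RPKM in Nampt-cKO skin and 49.9 ± 2.11 RPKM in control skin without overlap, and did not pass (adjusted p = 0.068).

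The glycerol phosphate shuttle, which carries electrons of cytosolic NADH to the mitochondrial respiratory chain, split in direction. Gpd1, the cytosolic NADH-dependent enzyme, was at 5.70, 3.48, 7.12 and 4.25 RPKM in Nampt-cKO libraries, against 11.2, 8.60, 11.4 and 5.31 RPKM in control libraries. The groups overlapped, and the call (log2 fold change −0.83, standard error 0.28, adjusted p = 0.0371) was lost in 7 of 24 alternatives, with adjusted p up to 0.101. Gpd2, the mitochondrial enzyme, was higher at 4.38, 5.47, 6.57 and 5.96 RPKM in Nampt-cKO libraries, against 3.70, 3.09, 3.31 and 3.42 RPKM in control libraries (log2 fold change 0.73, standard error 0.13, adjusted p = 0.00181).

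Hif1a encodes the oxygen-regulated subunit of HIF-1, a transcription factor that induces many glycolytic genes and is controlled mainly through protein stability. It was at 61.1, 92.0, 95.3 and 97.6 RPKM in Nampt-cKO libraries, against 31.1, 31.5, 29.7 and 29.7 RPKM in control libraries, and lies on chromosome 12 from 73901324 to 73947554. The control libraries were almost level, and even the lowest Nampt-cKO library, replicate 1, was above all of them. The log2 fold change was 1.50 (standard error 0.14, adjusted p = 5.53e-05). RNA levels do not report the amount of HIF-1α protein.

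Among the 18 higher genes, Nampt-cKO replicate 1 was the lowest Nampt-cKO library for 16, and for all 13 that were more than 2-fold higher. Replicates 2 and 3 were both above replicates 1 and 4 for 13 of the 18 genes. Among the Nampt-cKO libraries, replicate 1 also had the lowest summed level for 5 of the 7 marker lists (muscle, adipocyte, neutrophil, macrophage and fibroblast) and the lowest Nampt level, 7.11 RPKM. The part of these in the order was not tested.

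Skeletal muscle RNA varied widely within both groups and is given beside the 4 muscle-enriched isoforms. The summed level of 12 muscle markers such as Acta1 and Ckm was 78.3, 929, 2714 and 244 RPKM in Nampt-cKO replicates 1 to 4, against 1480, 625, 1491 and 120 RPKM in control replicates 1 to 4. None of the 12 passed the test, 1 had an unadjusted p under 0.05, DESeq2 called 1 and limma-voom called 0. Eno3, the muscle enolase, was at 7.26, 29.3, 57.7 and 9.67 RPKM in Nampt-cKO libraries, against 35.3, 18.0, 36.8 and 7.46 RPKM in control libraries. The 8 libraries stood in the same order for Eno3 as for the muscle sum. Its log2 fold change was 0.09 (standard error 0.67, adjusted p = 0.926).

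Pgam2, the muscle phosphoglycerate mutase, was at 1.88, 6.12, 17.9 and 1.96 RPKM in Nampt-cKO libraries, against 25.8, 13.0, 24.8 and 3.69 RPKM in control libraries. Control replicate 2 had a lower muscle sum than Nampt-cKO replicate 2 and a higher Pgam2 level. The log2 fold change of Pgam2 was −1.27 (standard error 0.79, adjusted p = 0.218), and −1.36 (adjusted p = 0.00144) with the muscle sum as a covariate. The covariate fit also called muscle markers that are part of that sum, in both directions. Ckm, Mylpf and Tnnc2 were lower there (−0.67, −0.63 and −0.63), and Tnni2, Atp2a1 and Myh2 were higher (0.49, 0.75 and 2.07). Without the library labelled Nampt-cKO replicate 3, the value was −2.35 (adjusted p = 0.0242). Pfkm, the muscle phosphofructokinase, was at 8.25, 10.3, 17.9 and 7.15 RPKM in Nampt-cKO libraries, against 18.1, 13.7, 16.6 and 8.72 RPKM in control libraries (log2 fold change −0.39, standard error 0.31, adjusted p = 0.327), and passed without the library labelled Nampt-cKO replicate 3 (−0.75, adjusted p = 0.0325). Slc2a4, which encodes the insulin-responsive GLUT4 of muscle and fat, was at 2.65, 6.18, 11.0 and 4.61 RPKM in Nampt-cKO libraries, against 5.91, 3.88, 5.78 and 3.05 RPKM in control libraries (log2 fold change 0.39, standard error 0.39, adjusted p = 0.447). With Aldoa, Pfkfb1, Pdk4 and Gpd1 added as genes that muscle also expresses strongly, 1 of 8 was lower, which was Gpd1.

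**Figure D4:**
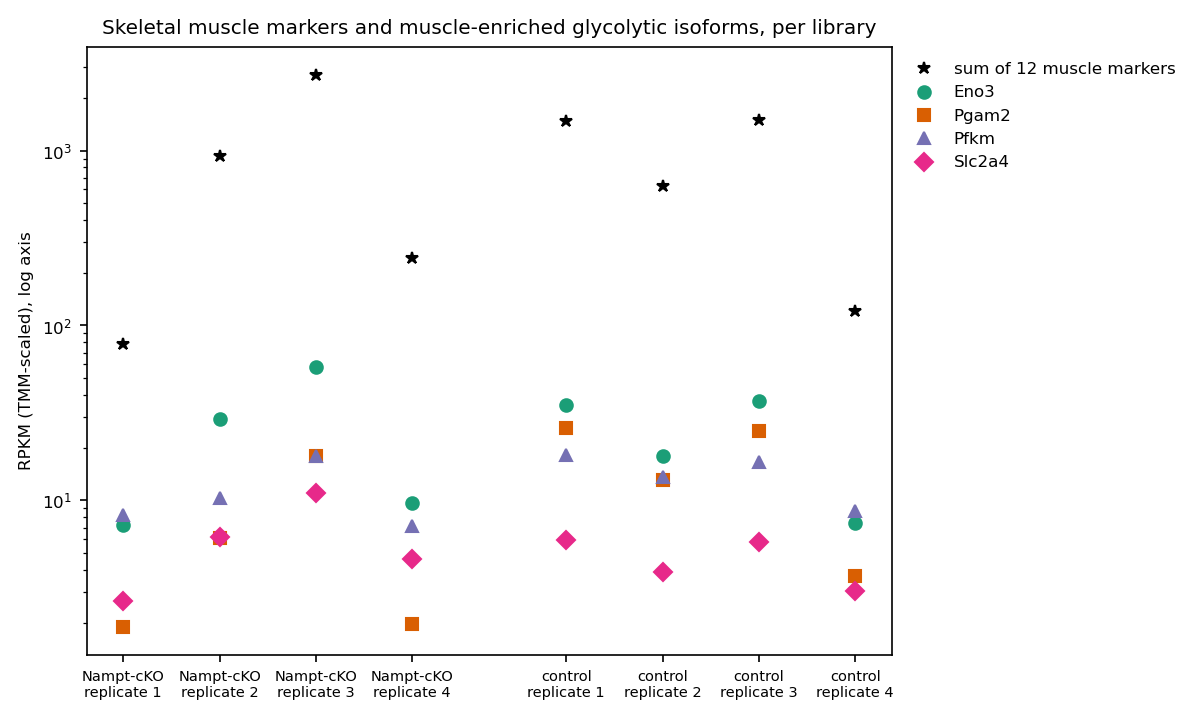
TMM-scaled RPKM on a log axis of 4 muscle-enriched isoforms and of the sum of 12 skeletal muscle markers in each Nampt-cKO and control library. The sum was between 78.3 and 2714 RPKM in Nampt-cKO and between 120 and 1491 RPKM in control libraries, and each isoform was highest in Nampt-cKO replicate 3 within its group and in replicates 1 and 3 within control skin.

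Intron reads, which can come from unspliced RNA, gave a second readout from the same libraries. Their source was not tested. Of 15895 genes tested on intron reads, 13.8% were higher and 14.4% were lower in Nampt-cKO skin, and of the 38 genes 16 were higher and 2 were lower. Introns took 12.7% to 16.5% of gene reads in Nampt-cKO libraries and 10.8% to 11.8% in control libraries. The intron log2 fold change was 2.87 for Pgk1 (standard error 0.31, adjusted p = 3.27e-05), 2.33 for Gapdh (0.31, 1.4e-04), 2.08 for Pkm (0.19, 8.41e-06) and 2.02 for Ldha (0.27, 1.45e-04). It was −0.89 for Ldhb (0.30, 0.0426) and −0.72 for Pfkfb2 (0.15, 0.00377). Pfkp and Aldoa, which did not pass on exon reads, were higher on intron reads, by 0.68 (adjusted p = 0.00613) and 0.58 (adjusted p = 0.0178). Pdk2, Pdk3, Gpd1, Gpd2, Pdha1, Slc2a3 and Slc16a1 passed on exon reads and not on intron reads, where their adjusted p ranged between 0.0821 and 0.836.

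Several of these genes have near-identical copies elsewhere in the genome, and reads that match more than 1 place were counted. For 32 of the 38 genes at least 99% of exon reads were unique. The exceptions were Gapdh (6.2%), Pgk1 (26.4%), Hif1a (47.5%), Slc16a3 (57.1%), Pdha1 (59.2%) and Eno1 (63.3%), so their levels are less certain. On unique reads alone the log2 fold change was 1.64 for Gapdh (adjusted p = 8.42e-04), 1.70 for Pgk1 (2.54e-04), 1.57 for Hif1a (6.14e-05), 2.65 for Slc16a3 (0.00186), 0.30 for Pdha1 (0.00215) and 1.56 for Eno1 (5.85e-04). The same 18 genes were higher and the same 5 lower as on total reads. Strand is not stated in the sources used here, so reads of overlapping or antisense genes cannot be told apart.

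Around the pathway, 71 related genes were read as whole lists, of which 63 could be tested, 17 were higher and 14 were lower, with a median log2 fold change of 0.12. These shares were close to those of all genes. Sugar transporters other than the 3 above were mostly lower, with 5 of 7 tested lower and 1 higher. Slc2a12 averaged 1.02 ± 0.197 RPKM in Nampt-cKO skin and 10.7 ± 1.42 RPKM in control skin (log2 fold change −3.38, adjusted p = 2.84e-06), and the fructose transporter Slc2a5 1.22 ± 0.324 RPKM and 5.09 ± 0.399 RPKM (−2.06, adjusted p = 5.94e-05). Slc2a9, a urate transporter, was the one that rose (log2 fold change 0.99, adjusted p = 0.00388). Of the tissue-restricted isozymes, 5 of 10 could be tested and 2 were lower, both at low levels. The sperm-type Gapdhs averaged 0.653 RPKM in Nampt-cKO skin and 1.07 RPKM in control skin (−0.72). It had 345 and 588 exon reads in these groups, beside 3177 and 6051 intron reads. Slc16a7, which encodes MCT2, averaged 0.430 RPKM in Nampt-cKO skin and 0.737 RPKM in control skin (−0.78). Basigin, Bsg, the chaperone of MCT1 and MCT4, was higher at 170 ± 8.46 RPKM in Nampt-cKO skin and 135 ± 3.70 RPKM in control skin (log2 fold change 0.33, adjusted p = 0.00343).

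Of 9 genes of mitochondrial pyruvate entry, 4 were higher and 1 was lower. Dlat, Pdhx and Dld, which encode the other parts of pyruvate dehydrogenase, rose by log2 fold changes of 0.65, 0.53 and 0.30, and the phosphatase gene Pdp2 by 0.91, while Mpc2 of the mitochondrial pyruvate carrier was at −0.36. Among 8 genes of the malate-aspartate and glycerol phosphate shuttles, 3 were higher and 2 were lower. Mdh2, the mitochondrial malate dehydrogenase, averaged 193 ± 23.5 RPKM in Nampt-cKO skin and 93.0 ± 2.97 RPKM in control skin (log2 fold change 1.05, adjusted p = 4.85e-05). Got2 and the aspartate-glutamate carrier Slc25a13 rose by 1.08 and 1.56, and Slc25a11 and Gpd1l were at −0.41 and −0.64. In gluconeogenesis and glycogen metabolism, 9 of 12 tested genes did not pass, Pgm1 and Gys1 were higher (0.71 and 0.65), and the glycogen phosphorylase gene Pygb was lower (−0.88). Pgm1 here is the gene on chromosome 5 from 64092831 to 64128355. The gene named Pgm2, on chromosome 4, did not pass (0.50, adjusted p = 0.0905).

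Of 8 HIF regulators, 1 was higher and 1 was lower, where 23.8% and 22.0% of all genes were. Egln1, an oxygen sensor that marks HIF-1α for decay, was the higher one (log2 fold change 0.31, adjusted p = 0.0126), and Hif1an, which blocks HIF transactivation, the lower one (−0.28, adjusted p = 0.011). Of 12 other known HIF target genes, 5 were higher and 2 were lower, beside the same background. Car9, a carbonic anhydrase, averaged 2.65 ± 0.374 RPKM in Nampt-cKO skin and 0.352 ± 0.0904 RPKM in control skin (log2 fold change 2.91, adjusted p = 4.64e-05). Ero1l of disulfide bond formation rose by 0.88 (adjusted p = 4.88e-04) and the angiogenic factor Vegfa by 1.53 (adjusted p = 0.0011), whereas Mxi1, a MYC antagonist, was at −0.64 (adjusted p = 3.37e-04). Among the targets that did not pass, Bnip3 had a log2 fold change of 0.16 (adjusted p = 0.684) and Ndrg1 one of −0.34 (adjusted p = 0.132).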

How the data were processed

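The authors deposited, for each gene and library, whole-number counts of total and unique exon reads and of intron and gene reads, with no normalization, and RPKM values, which the authors had computed per kilobase of exon. Gene positions were deposited with them and count from 0 at the start, so starts are printed 1 higher. The submitters' notes name GRCm38 (mm10). For the aligner, the counting tool, the strandedness and the test used by the authors: not given in the sources used here. The table also holds the authors' own fold changes, p-values and group means (22 columns) and 124 further library columns, which were not used.

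The fit of total exon reads used edgeR 4.0.16 under R 4.3.3, with filterByExpr, TMM scaling and a quasi-likelihood model of condition only. Adjustment (Benjamini-Hochberg) was over 17286 genes, which held 99.95% of exon reads. Levels are TMM-scaled RPKM computed from these counts and the deposited exon length, because the deposited RPKM used a larger total per library. Intron reads were fitted the same way. The biological coefficient of variation was 0.283, libraries held 39390895 to 53762935 exon reads, and replicates differed by more than sampling noise. The script was tested on simulated data.

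The genes, lists, cell type markers and tests were chosen with earlier results of these data known. All 38 genes are named with values. Those past the test, 8 key genes and the 4 muscle-enriched isoforms are given per library, and of each related list up to 4 genes past the test by p-value. Genes of a list named beyond these were chosen after their values were seen. Alternatives were other normalizations and filters, DESeq2 1.42.0, limma-voom and limma on log2 RPKM (limma 3.58.1), unique or gene reads, a replicate block, robust estimation, removal of the 20 most abundant genes, a muscle marker covariate and each library left out. Promoter windows came from RefSeq on GRCm38.p6 and matched 35 of the 38 genes. Plots used Matplotlib 3.10.9.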

Additional observations from a re-analysis of the deposited data

Results flagged for a closer look

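Of 76 groups of 4 libraries (38 genes in each group), 3 held a library whose gap to the nearest other library was above Dixon's 95% critical share of the group's range, and chance alone would mark about 1 group in 20. Hif1a in Nampt-cKO replicate 1 was at 61.1 RPKM, where the other Nampt-cKO libraries were at 92.0 to 97.6 RPKM. Slc16a3 in control replicate 3 was at 2.36 RPKM, where the other control libraries were at 1.69 to 1.80 RPKM. Tpi1 in control replicate 2 was at 107 RPKM, where the other control libraries were at 124 to 126 RPKM.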

How the results depend on the processing

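Over 24 alternatives, 21 of the 23 genes past the test kept their call and direction in each, and between 21 and 26 of the 38 genes passed. Slc2a3 and Gpd1 lost the call in some, and 6 genes gained one (Pfkm, Pfkfb4, Aldoa, Aldoc, Pgam2 and Pdhb). Of the 4 muscle-enriched isoforms, 1 passed with the muscle covariate (Pgam2), and 0 to 2 passed with each library left out in turn (2 without Nampt-cKO replicate 3). In the wider set of 8, 1 passed. The cause was not tested.

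The labels do not pair the replicate numbers, and no pairing is assumed. After removing group means, same-numbered libraries correlated by −0.0541 to 0.179, and libraries of other numbers by −0.23 to 0.14. Of the libraries, 3 of 4 Nampt-cKO and 2 of 4 control ones correlated best with their own number. With the replicate block, 22 of the 38 genes and 7516 of all genes passed.

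On the deposited RPKM, as log2(RPKM + 0.1) or log2(RPKM + 1), 42.4% or 42.3% of calls were higher, compared with 52.0% on counts, and the median of all genes was at −0.10 on the scale with 0.1.

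Direction turned only for 6 genes that did not pass. Eno2 was at −0.0372 on log2(RPKM + 0.1), filtered or not, at −0.0211 on log2(RPKM + 1), and at −0.0350 to 0.184 with a library left out. Eno3 was at −0.20 by limma-voom, −0.22 on log2(RPKM + 0.1), filtered or not, −0.20 on log2(RPKM + 1), −0.0609 with the replicate block, and −0.67 to 0.40 with a library left out. Pdk1 was at −6.65e-04 by DESeq2, −2.66e-04 with RLE factors, −0.0228 by limma-voom, −0.0872 on log2(RPKM + 0.1), filtered or not, −0.0787 on log2(RPKM + 1), −0.0314 with library totals only, −0.00746 with no filter, −0.00387 with the replicate block, −0.0245 with the stricter filter, −0.00583 on unique reads, −0.0521 with upper-quartile factors, and −0.0838 to 0.0441 with a library left out. With a library left out, Slc2a4 was at −0.0625 to 0.641, Pfkfb1 at −0.0687 to 0.561 and Pdk4 at −0.16 to 0.94, each lowest without the library labelled Nampt-cKO replicate 3.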

Other observations

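The order of levels per exon length shifted within the pathway. In Nampt-cKO skin the 5 most abundant of the 38 genes were Gapdh (738 ± 237 RPKM, SD, n = 4), Pkm (499 ± 137), Ldha (495 ± 113), Eno1 (319 ± 99.4) and Aldoa (299 ± 121), and in control skin they were Gapdh (245 ± 37.4), Aldoa (193 ± 43.1), Ldha (150 ± 12.1), Pkm (140 ± 7.78) and Tpi1 (120 ± 8.71). Pkm and Ldha were neighbours in both orders and differed by less than the SD of Ldha in each group, and reads shared with gene copies add to the uncertainty for Gapdh and Eno1. Slc16a3 was at position 23 of 38 in Nampt-cKO skin and 34 in control skin.

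Summed over families, hexokinase RPKM was 44.9 ± 2.73 in Nampt-cKO skin and 29.2 ± 2.21 in control skin, PFK-2 RPKM was 25.9 ± 2.74 and 19.6 ± 0.578, and PDH kinase RPKM was 43.7 ± 14.6 and 47.8 ± 2.33 in the same groups (SD, n = 4 each). The hexokinase and PFK-2 sums did not overlap between the groups, while the PDH kinase sums did. No test was run on these sums.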
